A study of Mus musculus with 6 samples.

Results

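The BCL2 family genes described here are the 10 rows, of 47205 in the deposited table, that carry the gene names Bcl2, Bcl2l1, Mcl1, Bcl2l10, Bax, Bak1, Bid, Bad, Bcl2l11 and Bmf. Their RNA was sequenced in whole mouse ovaries taken 9 days post partum (dpp). There were 3 libraries from conditional knockouts that lacked Srsf1 in granulosa cells (cKO) and 3 from wild-type mice (WT). SRSF1 is a splicing factor of the serine/arginine-rich class, and granulosa cells are the supporting somatic cells of the follicle, which enclose the oocyte. The series names granulosa cell survival in its title, and the comparison made here is whether transcripts of the genes that restrain or execute cell death differed between cKO and WT ovaries. The sources used here do not give the Cre driver, the Srsf1 allele, the strain or any pooling of animals. Nor do they say that replicates came from separate animals, so a p-value covers only the spread of these 6 libraries, which may be technical.

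BCL2 family proteins decide whether the outer membrane of the mitochondrion stays closed. Pro-survival members hold the pore-forming effectors BAX and BAK1 in check. BH3-only members, switched on by stress or the loss of survival signals, bind the pro-survival proteins or the effectors through a short helix, the BH3 motif. Once effectors open the membrane, cytochrome c escapes and caspases are activated. In the ovary this pathway is known for the loss of oocytes and for the death of granulosa cells in follicles that degenerate. Much of it is controlled by splicing, protein stability and phosphorylation. A gene-level RNA value shows none of these, and the isoforms of Bcl2l1, Mcl1, Bcl2l11 and other members were not resolved.

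The BH3 motif is the feature that lets these proteins bind each other, and its coding sequence is shown for the 9 members in which it was found. The search was for a leucine, any 3 residues, then glycine, alanine or serine, then aspartate, in 1 translated GENCODE M21 transcript per gene, and each of the 9 proteins held it once. The sequences are 30 bases each, 5′ to 3′ on the coding strand, from GRCm38. Capitals mark the codon of the leucine and the codons of the small residue and the aspartate.
Bcl2: accCTCcgccgggctGGGGATgacttctct
Bcl2l1: gcgCTGagagaggcaGGCGATgagtttgaa
Mcl1: accCTGcggcgcgtgGGCGACggcgtgcag
Bax: tgtCTCcggcgaattGGAGATgaactggac
Bak1: cagCTTgctctcatcGGAGATgatattaac
Bid: catCTCgcccaaataGGCGATgagatggac
Bad: gagCTCcgaaggatgAGCGATgagtttgag
Bcl2l11: gagCTGcggcggatcGGAGACgagttcaac
Bmf: aagCTTcagtgtattGCAGACcagttccat

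Their GRCm38 positions are chr1:106712575-106712604 for Bcl2 in exon 1, chr2:152829697-152829726 for Bcl2l1 in exon 2, and chr3:95659433-95659462 for Mcl1 in exon 1. The effector sequences lie at chr7:45465997-45466026 in exon 3 of Bax and at chr17:27022531-27022560 in exon 4 of Bak1. Those of the BH3-only genes lie at chr6:120897289-120897318 in exon 4 of Bid, chr19:6950789-6950818 in exon 3 of Bad, chr2:128147147-128147176 in exon 3 of Bcl2l11 and chr2:118545100-118545129 in exon 4 of Bmf. Mcl1, Bad and Bcl2l11 are on the plus strand and the other 6 on the minus strand. Any pair of the 9 shared 11 to 20 of 30 bases, part of which the search fixed by requiring the leucine, small residue and aspartate. The highest value, 20, was reached by Bad with Bcl2l11, Bad with Bcl2l1, Bcl2l11 with Bmf, and Bid with each of Bax and Bak1. The lowest, 11, was found for Bcl2 with Bak1 and for Bcl2l1 with Bmf. Bcl2l10 held no match to these letters.

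The libraries held 18.6, 18.6 and 18.7 M reads in cKO and 16.8, 18.2 and 18.5 M in WT, and 1 read in a gene of 1 kb stood for 0.052 to 0.0581 FPKM (fragments per kilobase, scaled between libraries). Srsf1 was at 22.9 ± 3.52 FPKM in cKO and 45.3 ± 4.96 FPKM in WT (SD, n = 3 each), with no overlap (limma adjusted p = 0.32). Libraries stood apart by gene length. The median coding gene of up to 1000 bases (604 genes) deviated from its own mean over the 6 libraries by 0.24 on the log2 scale in cKO replicate 2 and by -0.29 in WT replicate 2, but by no more than 0.05 in the other 4 libraries. Granulosa markers summed to 666 to 777 FPKM in cKO and 781 to 885 FPKM in WT, with 9 of 11 tested markers lower in cKO, led in level by Inha at 152.5 FPKM in cKO and 158.5 FPKM in WT. Oocyte markers, led by Zp3, summed to 2383 to 2725 FPKM in cKO and 2544 to 2667 FPKM in WT. Leukocyte markers, led by C1qb, summed to 74.5 to 203 FPKM in cKO and 33.7 to 51.4 FPKM in WT, and all 11 tested were higher in cKO. Interferon response genes, led by Bst2, summed to 607.5, 115.5 and 159 FPKM in cKO replicates 1 to 3 and 87.7 to 117.9 FPKM in WT. These sums overlapped, and the highest was that of cKO replicate 1 alone. Surface epithelium markers, led by Aldh1a2, summed to 285 to 387 FPKM in cKO and 189 to 264 FPKM in WT. Endothelial markers, led by Cdh5, summed to 119.5 to 131.1 FPKM in cKO and 109.6 to 113.4 FPKM in WT. Sums also overlapped between the groups for stroma and theca markers, led by Col1a2, and erythroid markers, led by Hba-a1. No marker on these lists was at 0 in every library.

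All 10 members passed the filter of a mean of at least 1 FPKM. Bcl2l10 had the highest level and Bcl2l11 the lowest, 67.7 and 3.77 FPKM as means over the 6 libraries. Between them stood Bax at 30.3, Mcl1 at 21.6, Bak1 at 16.4, Bad at 10.7, Bcl2l1 at 9.66, Bmf at 6.67, Bcl2 at 6.37 and Bid at 5.72 FPKM. Of the neighbours in this order, 3 pairs had overlapping ranges: Bad was above Bcl2l1 in 4 of 6 libraries, Bmf above Bcl2 in 3 of 6 and Bcl2 above Bid in 4 of 6. The other neighbours kept their order in 6 of 6 libraries without overlap. Bcl2l10 was above 95.2% of the 14714 tested genes, Bax above 85.3%, Mcl1 above 77.3% and Bcl2l11 above 27.1%.

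**Figure D1:**
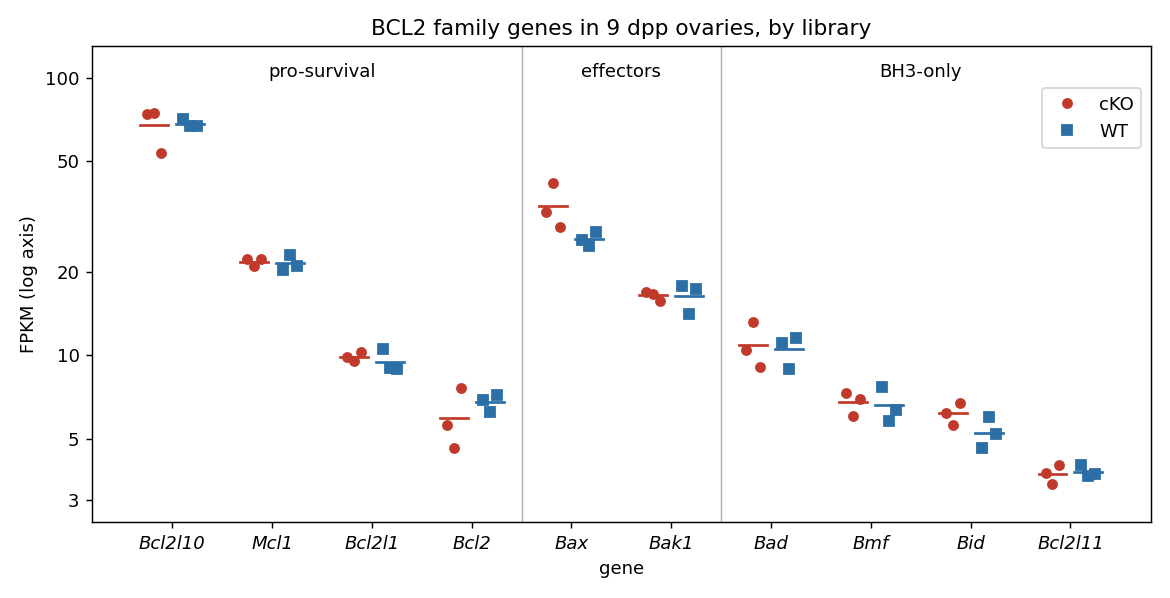
FPKM of the 10 BCL2 family genes in each library, on a log axis, with cKO as circles left of WT as squares, points in order of replicate, and bars at the group means. The groups overlap for 9 genes, and for Bax the 3 cKO libraries sit at 28.9 to 41.6 FPKM, above the WT libraries at 24.7 to 27.7 FPKM.

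No member passed the threshold of an adjusted p of 0.05 in the comparison of cKO with WT by limma, nor in limma-voom on recovered reads. The background was 3 of 14714 genes called by limma, 0.0204%, and none by limma-voom. At an unadjusted p under 0.05, 1 member, Bax, was found by either tool, against 6.34% of all tested genes by limma. The groups did not overlap for 1 of 10 members, again Bax, against 12.3% of all tested genes. Both shares of members are close to the background. The log2 fold change, cKO minus WT, was positive for 7 members and negative for 3, with a median of 0.03 against a median of 0.00 over all tested genes. By role, it was positive for 2 of 4 pro-survival members (median -0.01) and 5 of 6 pro-death members (median 0.04). In bulk ovary, fewer cells of a type and less RNA per cell cannot be told apart.

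**Figure D2:**
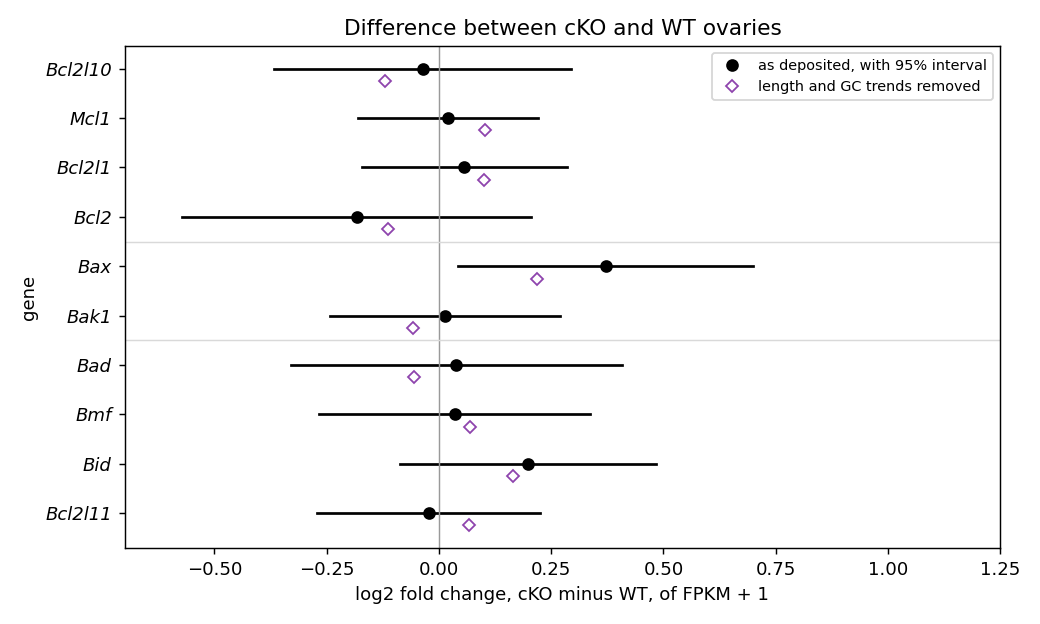
Log2 fold change of FPKM + 1, cKO minus WT, for each BCL2 family gene, as deposited (circles with 95% limma intervals) and after the length and GC trends of each library were removed (diamonds). The interval of Bax alone lies above 0, from 0.04 to 0.70, and the diamond of Bax is at 0.22.

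Among the pro-survival members, Bcl2l10 (chromosome 9, 75255040 to 75258922, plus strand, GRCm39 as for all gene positions in this section) was the most abundant. Bcl2l10, also called Diva or Boo in the mouse, is known for its expression in the ovary, and both pro-survival and pro-death activity have been ascribed to the mouse protein. It was at 73.9, 74.3 and 53.5 FPKM in cKO replicates 1 to 3, against 71.2, 66.7 and 66.8 FPKM in WT. Replicates 1 and 2 of cKO were above all WT libraries, and replicate 3 was below them all. The log2 fold change was -0.04 (SE 0.139, 95% interval -0.37 to 0.29, limma adjusted p = 0.969), and 0.12 without cKO replicate 3. The summed oocyte markers did not share this order: they were 2725, 2383 and 2627 FPKM in cKO replicates 1 to 3, so that replicate 2, not replicate 3, was lowest.

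Mcl1 (chromosome 3, 95564017 to 95583553, plus strand) encodes a short-lived pro-survival protein that restrains BAK1 and BH3-only proteins. It was the steadiest member, at 22.1, 20.9 and 22.2 FPKM in cKO and 20.3, 23.0 and 20.9 FPKM in WT. The ranges overlapped, and the log2 fold change of 0.02 had a 95% interval of -0.18 to 0.22, the narrowest of the 10. Bcl2l1 (chromosome 2, 152600652 to 152675723, minus strand) encodes BCL-XL and, by use of another 5′ splice site, the pro-death isoform BCL-XS, a choice of isoform that these gene-level values do not show. It was at 9.82, 9.54 and 10.2 FPKM in cKO and 10.5, 8.98 and 8.89 FPKM in WT. WT replicate 1 was above every cKO library and the other WT libraries were below them all, with a log2 fold change of 0.06 (95% interval -0.17 to 0.29). Bcl2l1 shares 6306 bases of its span with Cox4i2 on the opposite strand, and the sources used here do not give the strandedness, so some reads of the 2 genes may not be told apart.

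Bcl2 (chromosome 1, 106465906 to 106642020, minus strand), the founding member, encodes a pro-survival protein of the mitochondrial and endoplasmic reticulum membranes. It was at 5.62, 4.62 and 7.62 FPKM in cKO, against 6.87, 6.26 and 7.21 FPKM in WT. Replicates 1 and 2 of cKO lay below every WT library and replicate 3 above every one, so the cKO spread (SD 1.53) was wider than that of WT (SD 0.483). The log2 fold change was -0.18 (SE 0.165, 95% interval -0.57 to 0.21, limma adjusted p = 0.859). It was -0.35 without cKO replicate 3 and -0.04 without cKO replicate 2, so its size moved with either library.

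Bax (chromosome 7, 45111119 to 45116344, minus strand), which encodes the effector that moves from the cytosol to mitochondria, was higher in all 3 cKO libraries than in the 3 WT libraries. Its levels were 32.9, 41.6 and 28.9 FPKM in cKO (34.4 ± 6.50, SD, n = 3) and 26.0, 24.7 and 27.7 FPKM in WT (26.1 ± 1.50, SD, n = 3). The gap between the groups was small, with cKO replicate 3 next to WT replicate 3, and cKO replicate 2 was well above the rest. The log2 fold change was 0.37 (SE 0.138, 95% interval 0.04 to 0.70), or 1.29-fold on the scale of FPKM + 1. Unadjusted limma p was 0.0316, the 601st smallest of 14714, and adjusted p was 0.768, so Bax did not pass the threshold. An exact two-sided permutation test on Bax gave p = 0.1, which is the lowest value 3 against 3 libraries allow. The counts behind these values were 584, 751 and 498 reads in cKO and 421, 422 and 481 reads in WT.

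Bax was the shortest member in the table, at 940 bases, and had the highest GC content of the 10, 63.5%. Its highest and lowest libraries, cKO replicate 2 and WT replicate 2, were those in which short coding genes as a class were highest and lowest. Coding genes of up to 1000 bases differed between cKO and WT by a median-based 0.165 on the log2 scale, and those over 6000 bases by -0.072. After the trend with length was removed from each library, the log2 fold change of Bax was 0.26 (limma adjusted p = 0.747), and after the length and GC trends were removed together it was 0.22 (adjusted p = 0.692). The groups did not overlap in either case. Without cKO replicate 2 it was 0.23 (limma adjusted p = 0.715), and without both replicates numbered 2 it was 0.19 (adjusted p = 0.993). Without cKO replicate 1, WT replicate 1 or WT replicate 2 alone it was 0.40, 0.37 and 0.33. In each of these 5 cases of left-out libraries the unadjusted limma p was no longer under 0.05. It stayed under 0.05 with either trend removed, without cKO replicate 3, where the log2 fold change was 0.49, and without WT replicate 3, where it was 0.41. These settings were chosen after seeing the data, apart from leaving out a single library. The summed leukocyte, surface epithelium and endothelial markers, given above, likewise did not overlap, with cKO above WT, and the summed granulosa markers did not overlap, with cKO below WT. Their part in the Bax difference was not tested. The surface epithelium sum was 285, 387 and 380 FPKM in cKO replicates 1 to 3 and 264, 189 and 211 FPKM in WT replicates 1 to 3. It was highest in cKO replicate 2 and lowest in WT replicate 2, as Bax was. In both groups, however, replicates 1 and 3 stood in the opposite order to those of Bax. Among cKO libraries the leukocyte sum was lowest in replicate 2.

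**Figure D3:**
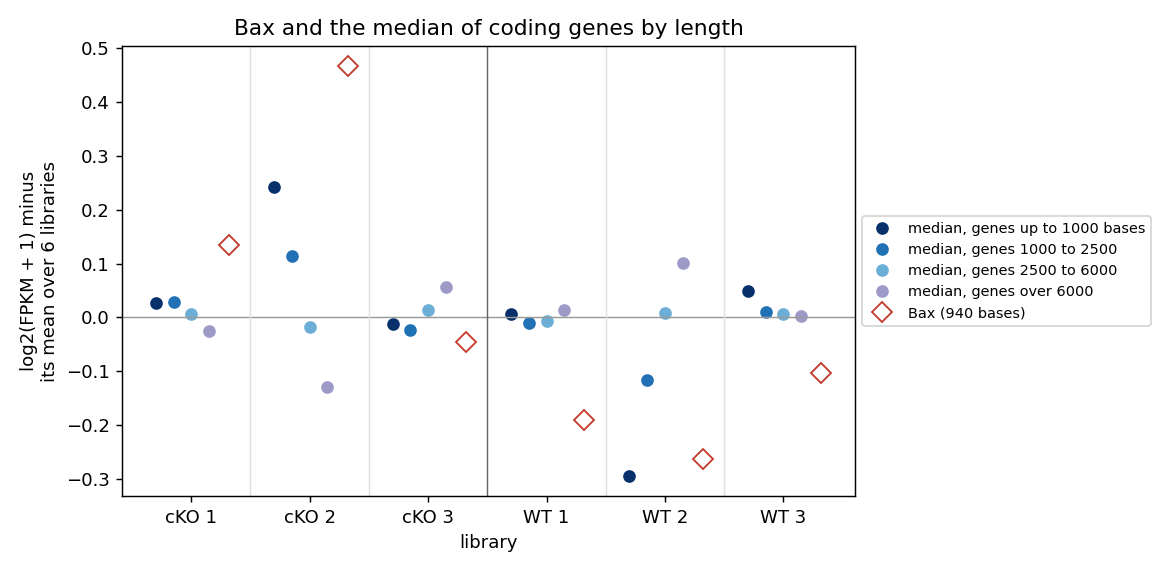
Log2(FPKM + 1) minus its mean over the 6 libraries, for Bax (open diamonds) and for the median of tested coding genes in 4 classes of gene length (filled circles), with cKO libraries left of WT. The class of up to 1000 bases stands at 0.24 in cKO replicate 2 and -0.29 in WT replicate 2, the libraries in which Bax is highest and lowest.

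Bak1 (chromosome 17, 27238786 to 27247601, minus strand), the effector that sits in the mitochondrial membrane, did not share the pattern of Bax. It was at 16.9, 16.7 and 15.7 FPKM in cKO and 17.7, 14.03 and 17.3 FPKM in WT, so the cKO values fell between the WT values. The log2 fold change was 0.01 (SE 0.108, 95% interval -0.24 to 0.27, limma adjusted p = 0.987), and the difference between the 2 effectors was not tested. The FPKM ratio of Bax to Bak1 was 1.95, 2.49 and 1.84 in cKO and 1.47, 1.76 and 1.60 in WT, again without overlap. Bak1 lies wholly within the span of Ggnbp1 on the opposite strand, a gene at a mean of 3.11 FPKM, so part of its reads may not be its own.

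Of the BH3-only members, Bid came next to Bax in size. Bid (chromosome 6, 120870080 to 120894074, minus strand) encodes the protein that caspase-8 cleaves, which links death receptors to mitochondria. It was at 6.19, 5.59 and 6.74 FPKM in cKO, against 4.62, 5.98 and 5.18 FPKM in WT. Only cKO replicate 2 and WT replicate 2 crossed over, and the log2 fold change was 0.20 (SE 0.120, 95% interval -0.09 to 0.48, limma adjusted p = 0.809). It was 0.12 without WT replicate 1 alone, and 0.34 without both replicates numbered 2, a setting chosen after seeing the data (limma adjusted p = 0.901).

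Bad, Bmf and Bcl2l11 differed little. Bad (chromosome 19, 6919229 to 6929273, plus strand), whose protein is held inactive by phosphorylation downstream of growth factors, was at 10.4, 13.2 and 9.03 FPKM in cKO and 11.1, 8.93 and 11.5 FPKM in WT. Like Bax it was highest in cKO replicate 2 and lowest in WT replicate 2, but its groups overlapped, its log2 fold change was 0.04 (95% interval -0.33 to 0.41), and without these 2 libraries it was -0.20. Bad shares 590 bases of its span with Gpr137 on the opposite strand, a gene at a mean of 8.90 FPKM, so part of its reads may not be its own. Bmf (chromosome 2, 118359238 to 118385280, minus strand), whose protein is tethered to the actin cytoskeleton's myosin V motor, was at 7.30, 6.01 and 6.95 FPKM in cKO and 7.68, 5.77 and 6.33 FPKM in WT. The WT libraries spanned the cKO range, and the log2 fold change was 0.04 (95% interval -0.27 to 0.34).

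Bcl2l11 (chromosome 2, 127967958 to 128004467, plus strand) encodes BIM, a BH3-only protein that binds all the main pro-survival members and that FOXO factors can induce. It was at 3.75, 3.42 and 4.01 FPKM in cKO and 4.01, 3.66 and 3.73 FPKM in WT. The ranges overlapped almost wholly, and the log2 fold change was -0.02 (95% interval -0.27 to 0.23). Over all 10 members, the 95% intervals reached at most 0.57 below 0, for Bcl2, and 0.70 above 0, for Bax. They are intervals for single genes on the scale of FPKM + 1, on which changes of low genes appear too small. They cover only the spread of these 6 libraries, so they do not exclude larger changes between cKO and WT ovaries.

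The balance of the family was described by the summed FPKM of the 4 pro-survival members over that of the 6 pro-death members. The largest member of the pro-survival sum was Bcl2l10, counted as pro-survival although pro-death activity has also been ascribed to the mouse protein. In whole ovary the sums pool all cell types, so the ratio is not that within any 1 cell type. The pro-survival sum was 111.4, 109.3 and 93.5 FPKM in cKO and 108.9, 104.97 and 103.9 FPKM in WT. The pro-death sum was 77.4, 86.5 and 71.3 FPKM in cKO and 71.1, 63.1 and 71.7 FPKM in WT. The log2 ratio was thus 0.53, 0.34 and 0.39 in cKO and 0.61, 0.74 and 0.53 in WT. Every cKO library was below every WT library, though cKO replicate 1 and WT replicate 3 were 0.53 each at this rounding. The lowest and the highest ratio were those of cKO replicate 2 and WT replicate 2, the libraries that stood apart by gene length. The means were 0.42 ± 0.0965 in cKO and 0.63 ± 0.101 in WT (SD, n = 3 each), a difference of -0.21, to which no test was applied because the members were summed by choice. In settings chosen after seeing the data, the difference was -0.18 with the length trend removed, -0.15 with the length and GC trends removed, where the groups overlapped, and -0.12 without both replicates numbered 2.

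Most of this difference was absent when Bax was left out. Without Bax the difference in the log2 ratio was -0.07, and without Bcl2l10 it was -0.20, and the groups overlapped in either case. Within these 10 members, the sign of the ratio itself rested on Bcl2l10. Without Bcl2l10 the ratio was below 0 in every library, at means of -1.06 in cKO and -0.86 in WT. The ratio also depends on which genes are summed. Bok, a BAX-like effector at a mean of 30.7 FPKM over the 6 libraries, against 30.3 FPKM for Bax, was not in the pro-death sum. The ratio with Bok included was not computed. Without both Bax and Bcl2l10, the ratio was -0.25, -0.36 and -0.09 in cKO and -0.26, -0.00 and -0.25 in WT, which overlapped, and the difference was -0.06. The linear ratio of Bax to Bcl2, a common summary of the pathway, was 5.85, 9.01 and 3.79 in cKO and 3.78, 3.95 and 3.84 in WT. Replicates 1 and 2 of cKO were above every WT library, while replicate 3 lay among the WT values. The ratio of Bax to Mcl1 was 1.49, 1.99 and 1.30 in cKO and 1.28, 1.07 and 1.32 in WT, which overlapped, and that of Bax to Bcl2l1 was 3.35, 4.36 and 2.82 in cKO and 2.47, 2.75 and 3.11 in WT, which also overlapped.

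**Figure D4:**
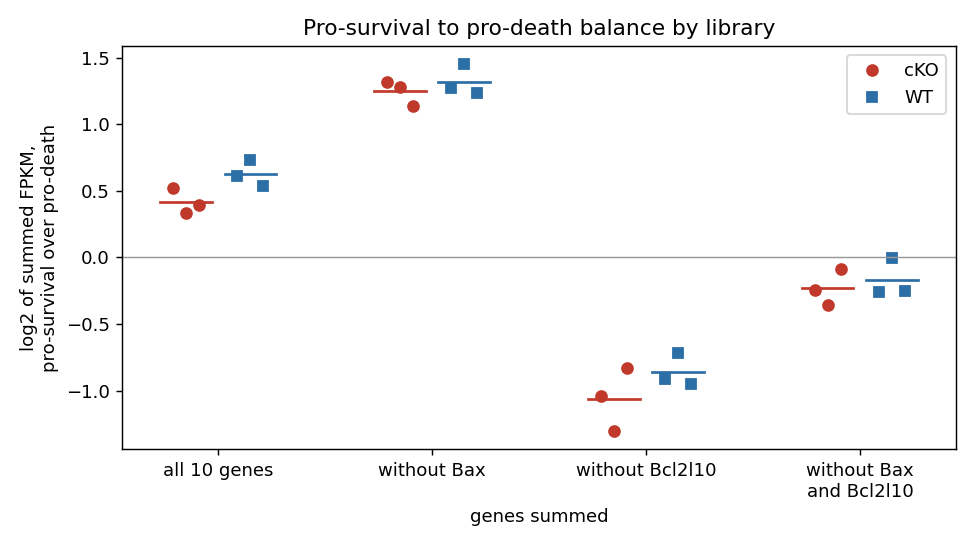
Log2 of the summed FPKM of pro-survival over pro-death members in each library, for all 10 genes and without Bax, Bcl2l10 or both, with cKO as circles left of WT as squares and bars at the means. The groups separate by a narrow gap with all 10 genes, at means of 0.42 in cKO and 0.63 in WT, and overlap once Bax or Bcl2l10 is left out.

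Across the 6 libraries the members did not move as a block. Of 45 pairs, 19 had a positive and 26 a negative Pearson correlation of log2(FPKM + 1), with a median of -0.028, from -0.869 for Mcl1 with Bak1 to 0.838 for Bcl2 with Bcl2l11. The 6 points share their libraries and the length trend described above, so these values are a description. The coding genes most like Bax were Cuta (r = 0.995), Begain and Haghl (r = 0.992 each), and 254 of 12728 coding genes had r above 0.9. Those most like Bcl2 were Rps6ka3 (r = 0.991), Cpt1a and Fam13c (r = 0.988 each), and those most like Bid were Ugt1a7c (r = 0.992), Dis3 (r = 0.967) and Fbxw2 (r = 0.961).

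Other genes of the pathway were read from the same limma fit, and none passed the adjusted threshold. At an unadjusted p under 0.05, 2 of the 36 tested genes in these lists were found, Foxo1 and Trp53, both among the regulators, against 6.34% of all tested genes, so the lists did not hold more such genes than the background. Of a list of other BCL2 relatives, which was not limited to pro-survival genes, 4 of 8 were tested, 1 higher and 3 lower in cKO. Bcl2l2, which encodes BCL-W, was at 7.14 ± 0.360 FPKM in cKO and 7.57 ± 0.859 FPKM in WT (SD, n = 3 each). Bcl2l13, a relative of the mitochondrial outer membrane, was at 10.6 ± 2.38 FPKM in cKO and 12.03 ± 0.238 FPKM in WT. Bcl2a1b, known from leukocytes, was at 4.43, 0.273 and 2.64 FPKM in cKO and 0.608, 0.144 and 0.708 FPKM in WT. It rested on 2 to 64 reads and has the near-identical copies Bcl2a1a and Bcl2a1d, so its value is uncertain, and in cKO its order among libraries, replicate 1 above 3 above 2, was that of the summed leukocyte markers.

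Of the other pro-death relatives, 4 of 7 were tested, 2 higher and 2 lower in cKO. Bok, a BAX-like effector known for its abundance in the ovary, was at 31.6 ± 5.30 FPKM in cKO and 29.8 ± 1.68 FPKM in WT, and its log2 fold change was 0.07. Bbc3, which encodes the p53 target PUMA, was at 1.66 ± 0.522 FPKM in cKO and 1.49 ± 0.211 FPKM in WT. Bnip3l, a mitophagy receptor, was at 50.4 ± 6.97 FPKM in cKO and 50.5 ± 0.658 FPKM in WT. The 3 BH3-only genes Pmaip1, Hrk and Bik were below the filter and were not tested.

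All 17 genes of the mitochondrial death pathway list, which holds porins, cytochrome c, caspases and their inhibitors, were tested, 9 higher and 8 lower in cKO, with a median log2 fold change of 0.01. The smallest p among them was that of Vdac2 (limma adjusted p = 0.798), a mitochondrial porin that binds BAK1, at 83.7 ± 6.24 FPKM in cKO and 73.7 ± 4.07 FPKM in WT. Vdac3, another porin, was at 137 ± 6.35 FPKM in cKO and 122 ± 15.4 FPKM in WT. Birc3, an inhibitor of apoptosis protein, was at 9.14 ± 0.459 FPKM in cKO and 10.1 ± 0.295 FPKM in WT. Its groups did not overlap, which held for 1 of the 17 genes, against 12.3% of all tested genes.

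Among the 11 tested regulators of BCL2 family levels, 5 were higher and 6 lower in cKO. Foxo1, a transcription factor of granulosa cells that can induce Bcl2l11 and Bbc3, was at 27.4, 23.0 and 35.6 FPKM in cKO and 36.6, 54.95 and 38.4 FPKM in WT. All cKO libraries were below all WT libraries by a narrow gap, and the log2 fold change was -0.58 (SE 0.205, limma adjusted p = 0.768). Its lowest library was cKO replicate 2 and its highest WT replicate 2, the libraries that stood apart by gene length. Trp53, which encodes p53, an activator of Bax and Bbc3 transcription, was at 51.2, 63.1 and 46.5 FPKM in cKO and 43.4, 43.4 and 43.1 FPKM in WT. The cKO libraries were all above the WT libraries, and the log2 fold change was 0.29 (SE 0.121, limma adjusted p = 0.773). Trp53 was highest in cKO replicate 2. Of these 11 regulators, the groups did not overlap for 1 higher in cKO, Trp53, and 1 lower, Foxo1, against 12.3% of all tested genes. The part of the length trend in the Foxo1 and Trp53 differences was not tested. Foxo3, known for holding primordial follicles dormant, was at 31.8 ± 5.38 FPKM in cKO and 35.9 ± 3.503 FPKM in WT.

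**Figure D5:**
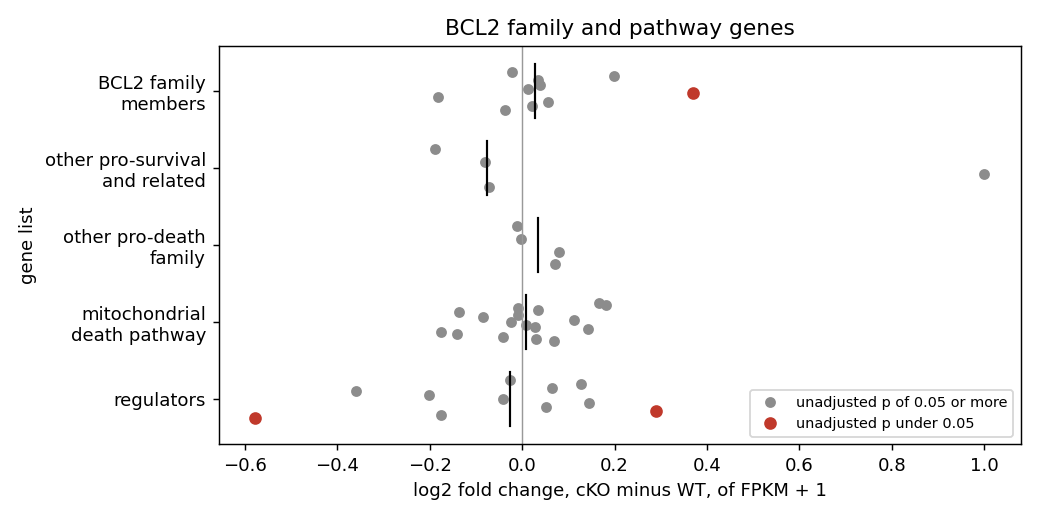
Log2 fold change of FPKM + 1, cKO minus WT, for each tested gene of the BCL2 family and of 4 lists of pathway genes, with a bar at each list's median and red points for an unadjusted limma p under 0.05. Bax at 0.37, Foxo1 at -0.58 and Trp53 at 0.29 are the red points, and none passes after adjustment.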

How the data were processed

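RNA was measured in 6 whole-ovary libraries (3 cKO, 3 WT; groups and replicate numbers from the titles), at 16.8 to 18.7 M recovered reads each. The authors deposited FPKM values, 1 row per gene, in a table of all 6 libraries. HISAT2 2.0.5 and the builds mm10 and GRCm39 are named in the submitters' processing notes without a role, and the table's chromosome accessions are those of GRCm39. The sources used here do not give the read counter or the strandedness. FPKM times gene length gave whole reads for 100% of values (within 0.01), and the implied denominators matched median-of-ratios size factors, so no further scaling was applied.

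Of 47205 genes, the 14714 with a mean of at least 1 FPKM were compared by limma 3.58.1 (R 4.3.3; lmFit, eBayes with trend, two-sided) on log2(FPKM + 1), on which changes of low genes appear too small, with Benjamini-Hochberg adjustment over all 14714. The test was also run on data simulated from its own fitted variances. These held no library differences by gene length, so that run does not show how the test behaves under them. Coding sequences came from GENCODE M21 on GRCm38. No coordinates were converted between builds.

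Genes named are the 10 members, Srsf1, up to 3 genes with the smallest unadjusted p of each pathway list (or those past the threshold), the most abundant gene of each marker list, and the 3 coding genes most correlated with each of 3 members. Genes named only because they overlap a member, are near-identical copies or fell below the filter are outside this rule. The members and lists were chosen with earlier results of these data known.

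Alternatives were other pseudocounts, filters and scalings, a prior without a trend, a replicate block, library weights, limma-voom on recovered reads, and leaving out each library. After seeing the data, removing the length trend or the length and GC trends of each library, and leaving out both replicates numbered 2, were added.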

Additional observations from a re-analysis of the deposited data

How the results depend on the processing

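No member passed the adjusted threshold under any of 20 other settings, and the smallest adjusted p of a member was 0.313, for Bax with library weights. Few genes of any kind passed. Library weights called the most, 3 of 14714 genes higher and 2 lower in cKO. The replicate block, limma-voom, no filter, and removing the length and GC trends were among the settings that called none. Srsf1 did not pass in any setting either, with a smallest limma adjusted p of 0.0641, with library weights. Of 199 recomputed fold changes of members, 173 kept their direction and 26 reversed, and Bcl2, Bax and Bid had no reversal. With a common FPKM total, which moved the median of all genes by -0.0563, the log2 fold change was -0.00172 for Bcl2l1, -0.0409 for Mcl1, -0.0469 for Bak1, -0.0198 for Bad and -0.0203 for Bmf. With library weights it was 0.0267 for Bcl2l10 and -0.00811 for Bad. With the length trend removed it was -0.0341 for Bak1, -0.0323 for Bad and 0.0594 for Bcl2l11, and with the length and GC trends removed -0.0568, -0.0551 and 0.0674. Without both replicates numbered 2 it was -0.0965 for Bak1, -0.2 for Bad and 0.00385 for Bcl2l11, while 0.0981 for Mcl1 and -0.131 for Bcl2l10 kept their direction. The cause of these reversals was not tested. Leaving out each library in turn gave ranges of 0.0179 to 0.128 for Bcl2l1, 0.124 to 0.28 for Bid, -0.0155 to 0.0717 for Mcl1, -0.115 to 0.117 for Bcl2l10, -0.0859 to 0.0721 for Bak1, -0.0972 to 0.154 for Bad, -0.0653 to 0.0246 for Bcl2l11 and -0.0437 to 0.136 for Bmf. It gave 0 to 2 members with an unadjusted limma p under 0.05 (2 being Bax and Bcl2, without cKO replicate 3). In the same settings, 261 to 604 of 14714 tested genes were higher in cKO at such a p, and 226 to 522 were lower. Leaving out each library gave 1 to 3 members whose groups did not overlap, against 17.1% to 25.8% of all tested genes in the same settings. Without both replicates numbered 2, 5 members did not overlap (Bax, Mcl1, Bak1, Bad and Bid), against 33.2% of all tested genes. The difference in balance was -0.0593 without Bcl2l10 and Bax, -0.263 to -0.156 with a library left out, -0.116 without both replicates numbered 2, and -0.179 and -0.148 with the length trend and with the length and GC trends removed. With the replicate number as a block (replicate block), 0 members had an unadjusted limma p under 0.05, and Bax had a limma adjusted p of 0.825. At such an unadjusted p, 488 of 14714 tested genes were higher in cKO and 396 were lower with this block. Same-numbered libraries deviated with correlations of 0.18, -0.08 and -0.06, so the numbers were not taken to pair them. The 5 FPKM filter left no value for Bcl2l11. In depth, members rested on 191 to 3654 reads per library.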
